A study of Homo sapiens with 18 samples.

Results

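The genes described here are those of the HLA class I antigen presentation pathway: the class I heavy chains HLA-B, HLA-C, HLA-E and HLA-F, the light chain B2M, both subunits of the peptide transporter, TAP1 and TAP2, and the loading factor tapasin, encoded by TAPBP. These 8 genes were picked by name, with earlier results of these data known. All 8 had a row among the 23621 gene rows of the expression table and passed the filter that left 12771 genes for testing. RNA was sequenced from 18 libraries of GIST-T1, a human cell line from a gastrointestinal stromal tumor that depends on the receptor tyrosine kinase KIT. Its 6 groups of 3 libraries were imatinib for 6 h, imatinib for 24 h, JQ1 for 6 h, JQ1 for 24 h, imatinib plus JQ1 for 24 h, and DMSO, the solvent, for which the labels give no time. Each drug was used at 500 nM. Imatinib inhibits the kinase activity of KIT, and JQ1 displaces BET bromodomain proteins, which read acetylated histones, from chromatin. All groups are of 1 cell line, and separate cultures for the 3 libraries of a group are not stated in the labels, so p-values measure the spread between these libraries.

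Class I molecules show fragments of the proteins made inside a cell to CD8+ T cells and natural killer cells. The proteasome cuts the proteins, the TAP1 and TAP2 pump carries the peptides into the endoplasmic reticulum, tapasin holds an empty class I molecule beside the pump, and the loaded complex of heavy chain, B2M and peptide goes to the cell surface. Interferons raise the transcription of most of these genes through interferon regulatory factors and the class I transactivator NLRC5, and loss of these genes is a known route by which tumor cells escape T cells.

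The promoters are shown first because the members are a classic case of genes that share control elements. The sequences are from RefSeq (GRCh38.p14), which held a promoter for 7 of the 8 members, all but HLA-E; the expression values were made with hg19, and only gene names link the 2. Each run is the 200 bases before the annotated start, 5′ to 3′ on the gene's strand. TAP1 had 2 entries, of which the one with the more upstream start was taken. Capitals mark the core of an interferon regulatory factor site, AANNGAAA on either strand, overlapping matches merged. The promoters shown are those of TAP1 at chr6:32853705-32853904 on the minus strand, TAP2 at chr6:32838740-32838939 on the minus strand, TAPBP at chr6:33314079-33314278 on the minus strand, B2M at chr15:44711317-44711516 on the plus strand and HLA-B at chr6:31357180-31357379 on the minus strand.
TAP1: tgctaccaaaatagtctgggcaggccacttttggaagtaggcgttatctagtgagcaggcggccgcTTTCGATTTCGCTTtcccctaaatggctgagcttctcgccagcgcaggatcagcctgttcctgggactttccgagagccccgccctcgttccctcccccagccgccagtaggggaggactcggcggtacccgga
TAP2: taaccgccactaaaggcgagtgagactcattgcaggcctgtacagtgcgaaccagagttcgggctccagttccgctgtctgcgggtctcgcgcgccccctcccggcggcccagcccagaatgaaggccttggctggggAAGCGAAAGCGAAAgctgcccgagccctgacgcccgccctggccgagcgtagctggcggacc
TAPBP: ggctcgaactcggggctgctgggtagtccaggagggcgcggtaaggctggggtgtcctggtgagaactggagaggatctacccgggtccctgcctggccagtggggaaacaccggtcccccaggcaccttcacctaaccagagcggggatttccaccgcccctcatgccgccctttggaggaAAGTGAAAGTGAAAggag
B2M: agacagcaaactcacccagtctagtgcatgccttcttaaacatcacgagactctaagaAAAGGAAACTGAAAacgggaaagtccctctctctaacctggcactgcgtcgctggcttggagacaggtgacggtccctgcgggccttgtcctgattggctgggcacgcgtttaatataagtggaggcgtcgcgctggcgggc
HLA-B: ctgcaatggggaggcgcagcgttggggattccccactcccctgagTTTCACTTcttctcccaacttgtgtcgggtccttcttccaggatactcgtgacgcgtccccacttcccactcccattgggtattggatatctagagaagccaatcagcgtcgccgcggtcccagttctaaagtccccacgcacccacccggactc
This core occurred in 7 of 7 member promoters and in 16.1% of 35116 promoters of the same length, a background that counts every entry of a gene. The core of the interferon-stimulated response element, in which GAAA recurs after any pair of bases on either strand and which contains the first motif, occurred in 5 of 7 member promoters and in 2.4% of all. In TAP1, TAP2, TAPBP and B2M a pair of cores overlapped to form the longer run in capitals, while HLA-B held a single core. The CCAAT box, bound by NF-Y, occurred in 4 of 7 member promoters (28.0% of all), namely the 3 heavy chains and B2M, and in neither transporter gene nor TAPBP. The half-site TGACG, bound by CREB and ATF proteins, occurred in 4 of 7 (18.4% of all), and the kappa B consensus in 5 of 7 (8.14% of all). HLA-B and HLA-C shared an unbroken run of 23 bases that spans the core. A match is only a string of letters, and binding was not measured.

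The deposited values are labelled as normalized FPKM, a measure in fragments per kilobase of transcript. Their sum over genes ran from 286566 to 2463610 FPKM per library, so these values are not on a scale of equal library totals. The ERCC spike-in transcripts, added in proportion to cell number, summed to a like total of 6505 to 6948 FPKM in each library. On this scale most genes were lower after the drugs: the median log2 change of the 12771 tested genes against DMSO was -0.69 after imatinib for 6 h, -1.50 after imatinib for 24 h, -1.0 after JQ1 for 6 h, -1.49 after JQ1 for 24 h and -2.05 after both. Each result is therefore given on a second scale too, on which every library was divided by the median ratio of its tested genes to the average library. That removes the shift shared by all genes and shows how a member moved relative to the typical gene. A change was called where limma's adjusted p was below 0.05 and the log2 change of (FPKM + 1) was at least 1 in size, on either scale. The 6 markers of the GIST lineage, all above 1 FPKM in at least 1 library, summed to 669.9 to 755 FPKM after imatinib for 6 h, 510.1 to 556 after imatinib for 24 h, 486 to 555 after JQ1 for 6 h, 252 to 331 after JQ1 for 24 h and 113 to 198 after both, against 1383 to 2084 FPKM in DMSO. Of 12 leukocyte markers, chosen because blood cells are rich in class I, 10 stayed below 1 FPKM in all 18 libraries, PTPRC (CD45) among them at no more than 0.112 FPKM. The leukocyte markers summed to 8.62 to 10.8 FPKM after imatinib for 6 h, 4.95 to 5.46 after imatinib for 24 h, 6.72 to 7.37 after JQ1 for 6 h, 2.73 to 3.88 after JQ1 for 24 h and 1.61 to 2.40 after both, against 14.3 to 18.2 FPKM in DMSO, in which CD68, a lysosomal protein gene, had the highest mean in every group. Both sums moved with the groups, and their part in the members' values was not tested. A lower value in these bulk libraries cannot tell fewer expressing cells from less RNA per cell.

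The members differed widely in level in DMSO, and FPKM, being per length, can be compared between genes. B2M, the invariant light chain that every class I molecule needs, was the highest, at 912, 1204 and 1376 FPKM. HLA-C followed at 236, 298 and 387 FPKM, HLA-B at 183, 229 and 294 FPKM and HLA-E at 109, 134 and 176 FPKM. The loading genes were close together, with TAPBP at 49.2 ± 11.8, TAP2 at 48.7 ± 12.2 and TAP1 at 48.6 ± 9.80 FPKM (SD, n = 3 libraries), and their libraries overlapped. HLA-F, a nonclassical heavy chain, was lowest at 11 ± 2.35 FPKM. HLA-C and HLA-B overlapped in DMSO, while B2M, HLA-E and HLA-F each stood apart from their neighbours in the order. HLA genes are near-identical over much of their length, and the alleles of GIST-T1 may differ from those of the reference, so how reads were shared among HLA-B, HLA-C and the other heavy chains is uncertain.

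TAP1 and TAP2 had the lowest log2 changes of the 8 members in 4 of the 5 comparisons with DMSO, and TAP1 and TAPBP after JQ1 for 6 h. TAP1 stood at 12.8, 13.3 and 14.0 FPKM after imatinib for 6 h and at 7.42, 8.45 and 8.32 FPKM after imatinib for 24 h. JQ1 left it at 17.6, 17.4 and 18 FPKM after 6 h and at 3.01, 3.33 and 4.19 FPKM after 24 h, and imatinib plus JQ1 at 1.35, 2.65 and 1.71 FPKM, against 39.7, 46.8 and 59.1 FPKM in DMSO. No drug library reached the lowest DMSO library, and each group stood apart from the next in the order of means, from DMSO through JQ1 6 h, imatinib 6 h, imatinib 24 h and JQ1 24 h to the combination. The mean was 25.5-fold lower after both drugs, 13.8-fold lower after JQ1 for 24 h and 6.02-fold lower after imatinib for 24 h, in each case than in DMSO.
TAP2, its partner in the pump, stood at 16.7, 17.5 and 20.6 FPKM after imatinib for 6 h and at 3.89, 3.69 and 3.95 FPKM after imatinib for 24 h. It stood at 18.8, 18.2 and 21.6 FPKM after JQ1 for 6 h, at 2.87, 3.75 and 3.93 FPKM after JQ1 for 24 h and at 1.52, 2.94 and 1.73 FPKM after both, against 38.1, 46.2 and 62.0 FPKM in DMSO. The 6 h groups overlapped each other, the 24 h groups ran into each other in the order of means, and these sets and DMSO were apart. Its mean was 12.7-fold lower after imatinib for 24 h, 13.9-fold lower after JQ1 for 24 h and 23.6-fold lower after both than in DMSO.

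The ratio between the 2 subunits was farthest from DMSO after imatinib for 24 h. After imatinib for 24 h the ratio of TAP1 to TAP2 within a library was 209.9% ± 19.1, against 100.4% ± 4.57 in DMSO (SD, n = 3). In the other drug groups it was 73.5% ± 4.70 after imatinib for 6 h, 90.8% ± 6.65 after JQ1 for 6 h, 100.1% ± 9.89 after JQ1 for 24 h and 92.6% ± 5.54 after both. The imatinib 24 h libraries, at 191 to 229%, lay above every other library. Such a ratio of 2 genes in 1 library does not depend on how the library was scaled, though the overlap of groups is no test.
Tapasin, which bridges the pump and the empty heavy chain, was lowest where JQ1 was given for 24 h. TAPBP stood at 26.9, 27.8 and 31.2 FPKM after imatinib for 6 h and at 19.2, 19.5 and 19.6 FPKM after imatinib for 24 h. It stood at 18.1, 18.2 and 20.6 FPKM after JQ1 for 6 h, at 6.42, 7.74 and 9.12 FPKM after JQ1 for 24 h and at 3.28, 5.70 and 3.23 FPKM after both, against 39.2, 46.0 and 62.3 FPKM in DMSO. Every drug library was below every DMSO library, and the JQ1 24 h and combination libraries were below all others.

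**Figure D1:**
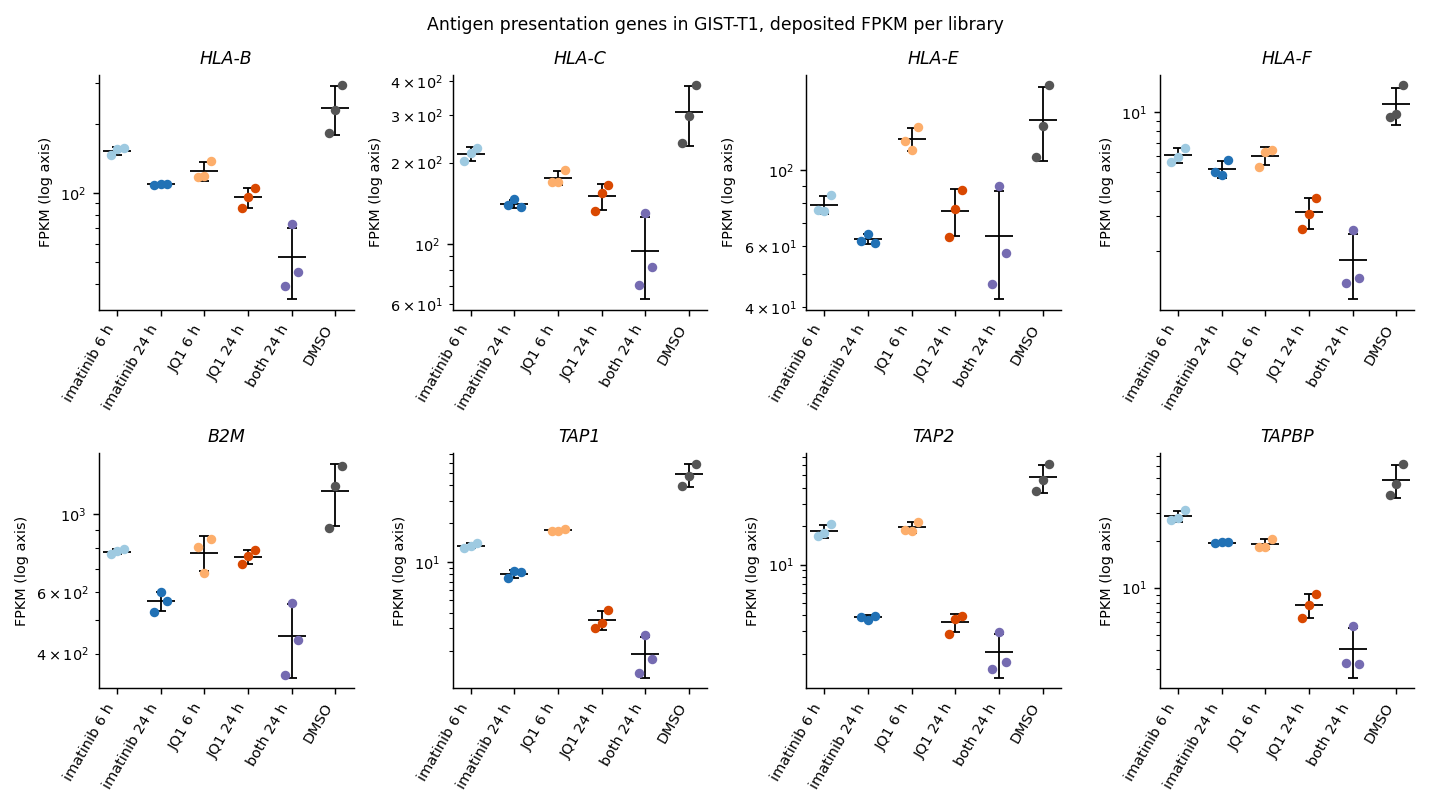
FPKM of each of the 8 members in every library (points, log axis), by group, with the mean and SD of 3 libraries. TAP1, TAP2 and TAPBP have their lowest mean in the combination, where TAP1 lies between 1.35 and 2.65 FPKM, and B2M keeps at least 347 FPKM in every library.

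The heavy chains and B2M had smaller changes than TAP1 and TAP2 in all 5 comparisons with DMSO. B2M stood at 770.2, 785 and 794 FPKM after imatinib for 6 h and at 528, 601 and 567 FPKM after imatinib for 24 h. It stood at 806, 679 and 849 FPKM after JQ1 for 6 h, at 721, 759 and 789 FPKM after JQ1 for 24 h and at 347, 559 and 437 FPKM after both, against 912, 1204 and 1376 FPKM in DMSO. All drug libraries lay below the DMSO libraries, and the imatinib 6 h, JQ1 6 h and JQ1 24 h groups ran into each other.
HLA-C averaged 216 ± 12.2 FPKM after imatinib for 6 h, 141 ± 4.63 after imatinib for 24 h, 176 ± 10.6 after JQ1 for 6 h, 151 ± 16.7 after JQ1 for 24 h and 94.0 ± 31.6 after both, against 307 ± 75.8 FPKM in DMSO (SD, n = 3 each). HLA-B averaged 152 ± 5.81 FPKM after imatinib for 6 h, 109 ± 0.489 after imatinib for 24 h, 124 ± 11.5 after JQ1 for 6 h, 95.5 ± 9.54 after JQ1 for 24 h and 52.3 ± 17.9 after both, against 235 ± 56.1 FPKM in DMSO. Both are classical heavy chains that present peptides to T cells, and both were lower than DMSO in every drug library. Within a library HLA-B was at 70.7% ± 1.45 of HLA-C after imatinib for 6 h, 77.5% ± 2.43 after imatinib for 24 h, 70.7% ± 2.26 after JQ1 for 6 h, 63.5% ± 1.09 after JQ1 for 24 h and 55.5% ± 0.543 after both, against 76.7% ± 0.652 in DMSO. Only the imatinib 24 h libraries overlapped DMSO in this ratio.

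HLA-E, which shows leader peptides of other class I chains to the NKG2A receptor of natural killer cells, was the 1 member whose JQ1 6 h libraries overlapped DMSO. It stood at 121, 114 and 133 FPKM after JQ1 for 6 h, against 109, 134 and 176 FPKM in DMSO. It stood at 76.6, 76.1 and 84.6 FPKM after imatinib for 6 h, at 62.0, 65.3 and 61.4 FPKM after imatinib for 24 h, at 63.8, 76.8 and 87.5 FPKM after JQ1 for 24 h and at 46.6, 89.4 and 57.3 FPKM after both. Every library of these 4 groups was below the lowest DMSO library, and the groups ran into each other. Relative to HLA-C in the same library, HLA-E was at 36.7% ± 1.5 after imatinib for 6 h, 44.6% ± 0.0862 after imatinib for 24 h, 69.8% ± 2.11 after JQ1 for 6 h, 50.3% ± 2.39 after JQ1 for 24 h and 68.4% ± 1.78 after both, against 45.4% ± 0.689 in DMSO.
HLA-F averaged 6.05 ± 0.523 FPKM after imatinib for 6 h, 5.16 ± 0.493 after imatinib for 24 h, 6.01 ± 0.628 after JQ1 for 6 h, 3.12 ± 0.555 after JQ1 for 24 h and 1.78 ± 0.647 after both, against 11 ± 2.35 FPKM in DMSO (SD, n = 3 each). Its libraries after JQ1 for 24 h and after both drugs lay below those of all other groups. Relative to HLA-C it was at 2.06% ± 0.151 after JQ1 for 24 h and 1.89% ± 0.104 after both, against 3.60% ± 0.369 in DMSO.

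Among the 3 libraries of the combination, replicate 2 was the highest for all 8 members, and its summed FPKM was 499857, against 286566 and 355558 in the other two. On the rescaled scale the 3 combination libraries held B2M at 983, 913 and 985 and TAP1 at 3.83, 4.32 and 3.86 rescaled FPKM, against 443, 487 and 459.8 and 19.3, 19.0 and 19.7 in DMSO. Replicate 2 was still the highest of the 3 for 7 of 8 members after rescaling, all but B2M, for which it was the lowest.

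The tests against DMSO asked which members each drug lowered in GIST-T1. After imatinib for 6 h, 2 of 8 members fell and 0 rose, where 20.0% of all tested genes fell and 0.384% rose. They were TAP1, with a log2 change of -1.77 ± 0.17 (SE; limma adjusted p = 1.8e-08), and TAP2, at -1.34 ± 0.18 (limma adjusted p = 2.3e-06). The other 6 had log2 changes from -0.78 for HLA-E to -0.48 for HLA-C, and all 8 were without overlap below DMSO, as were 78.8% of tested genes. After JQ1 for 6 h, 3 of 8 fell, where 49.8% of all genes did and 0.642% rose: TAP1 at -1.39 ± 0.17, TAPBP at -1.31 ± 0.19 and TAP2 at -1.25 ± 0.18 (limma adjusted p at most 1.8e-06). Without overlap below DMSO were 7 of 8, as were 91.4% of genes. HLA-E had a log2 change of -0.16 with a 95% interval of -0.58 to 0.27, and without DMSO replicate 3 it was 0.02. HLA-B, at -0.89, passed the threshold only without DMSO replicate 1, at -1.06.

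At 24 h more members passed, as did most genes. All 8 members lay without overlap below DMSO in each 24 h group, as did 90.8% of genes after imatinib, 92.5% after JQ1 and 94.4% after both. After imatinib for 24 h, 7 of 8 members fell, where 72.1% of all genes did and 0.642% rose. TAP2 changed by -3.33 ± 0.18, TAP1 by -2.43 ± 0.17 and TAPBP by -1.27 ± 0.19 (SE; limma adjusted p at most 2.5e-05 over the 7). HLA-B, HLA-C, HLA-E and B2M fell by about 1 on the log2 scale, from -1.11 to -1.02, and HLA-F, at -0.94, missed the threshold. Those 4 were no longer called without DMSO replicate 3, the highest DMSO library for every member, at -0.90, -0.91, -0.93 and -0.89, which left 3 of 8. B2M was also lost without DMSO replicate 2 (-0.99) or imatinib 24 h replicate 1 (-0.97). HLA-F was called without DMSO replicate 1, DMSO replicate 2 or imatinib 24 h replicate 3, at -1.03, -1.01 and -1.01.

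After JQ1 for 24 h, 6 of 8 members fell, where 75.3% of all genes did and 0.399% rose (limma adjusted p at most 6.3e-05 over the 6). TAP1 changed by -3.45 ± 0.17, TAP2 by -3.44 ± 0.18, TAPBP by -2.50 ± 0.19, HLA-F by -1.53 ± 0.17 and HLA-B by -1.27 ± 0.20 (SE). HLA-C stood on the threshold at -1.0 ± 0.20 and was not called with array weights (-0.95), nor without DMSO replicate 3 (-0.82) or the JQ1 24 h library that carries no matching number (-0.91). HLA-E, at -0.85, was called only without DMSO replicate 1 (-1.01), and B2M was at -0.60. Among the tested genes, 1.14% were lower on this log2 scale than TAP1 and 1.16% a lower one than TAP2, while 88.7% had a lower one than B2M.
After both drugs, 8 of 8 members fell, where 86.0% of all genes did and 0.235% rose (limma adjusted p at most 1.7e-05). TAP1 changed by -4.10 ± 0.17, TAP2 by -4.02 ± 0.18 and TAPBP by -3.31 ± 0.19, and the others ranged from -2.17 for HLA-B to -1.13 for HLA-E. HLA-E was not called without DMSO replicate 3 (-0.95) or combination replicate 1 (-0.92). The 5 comparisons share the DMSO libraries, and a count near the share of all genes says nothing particular about the members: their median log2 change was -0.74 after imatinib for 6 h, beside -0.69 for all genes, -1.10 after imatinib for 24 h, beside -1.50 for all genes, -0.83 after JQ1 for 6 h, beside -1.0 for all genes, -1.40 after JQ1 for 24 h, beside -1.49 for all genes, and -2.14 after both, beside -2.05.

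**Figure D2:**
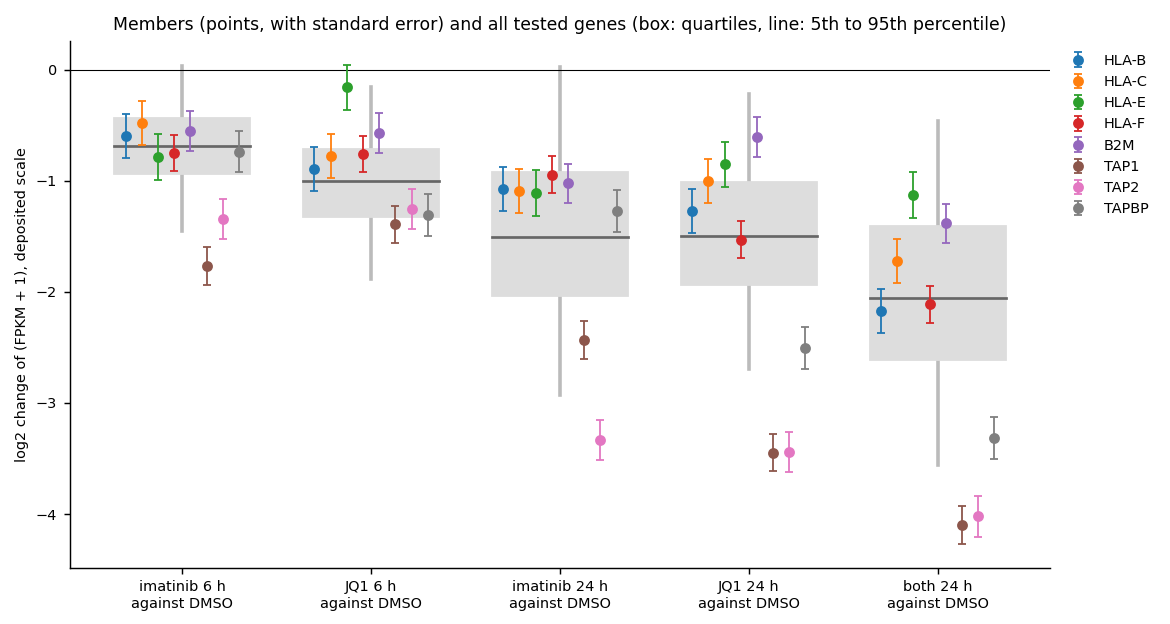
Log2 change of (FPKM + 1) against DMSO for each member (points, with SE), over the quartiles (box) and the 5th to 95th percentile (line) of all tested genes, on the deposited scale. TAP1 lies below the 5th percentile after imatinib for 6 h (-1.77), after JQ1 for 24 h (-3.45) and after both drugs (-4.10), TAP2 lies below it in all 3 groups of 24 h, and B2M lies above the median in all 5 comparisons.

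Relative to the typical gene, no member passed the threshold at 6 h. After rescaling, limma called 0 of 8 members after imatinib for 6 h, where 2.08% of all genes were called lower and 1.22% higher. An unadjusted p below 0.05 was found for 5 of 8, and for 8326 of the 12771 tested genes. TAP1, at -0.99 ± 0.05 (SE), lay just short of the fold threshold and passed it without DMSO replicate 2 (-1.0) or imatinib 6 h replicate 2 (-1.03), and when libraries were scaled to the same total (-1.01). After JQ1 for 6 h limma again called 0 of 8, where 2.57% were called lower and 2.47% higher. Here 7 of 8 had an unadjusted p below 0.05, as did 9247 of the 12771 tested genes. HLA-E, at 0.98 ± 0.05 relative to the median gene, was just short of the threshold and passed it without DMSO replicate 3 (1.02).

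At 24 h TAP2 was called lower on both scales in every drug group, and TAP1 on both scales where JQ1 was given. After imatinib for 24 h, 1 of 8 members was called after rescaling, where 8.72% of all genes were called lower and 8.8% higher: TAP2 fell relative to the median gene, with a log2 change of -1.71 ± 0.07 (SE; limma adjusted p = 8.6e-13). TAP1 was at -0.78, and the heavy chains and B2M, lower than DMSO on the deposited scale, lay between 0.57 and 0.72. With libraries scaled to the same total, where the median gene was itself at 0.39, 4 of these 5 passed the threshold as higher, all but HLA-F, from 1.06 to 1.17. After JQ1 for 24 h, 3 of 8 were called, where 6.47% were called lower and 5.25% higher. TAP1 fell relative to the median gene, with a log2 change of -1.87 ± 0.05, and so did TAP2, at -1.86 ± 0.07 (limma adjusted p = 2.4e-14 and 5.6e-13). B2M, which was lower than DMSO on the deposited scale, was higher relative to the median gene, at 1.10 ± 0.06 (limma adjusted p = 1.7e-10). It was at 0.99, not called, with libraries scaled to the same total without the MIR1244 rows. These rows, named for a microRNA, took 18.5 to 42.9% of the summed FPKM of a library, a per-length sum and not a share of RNA.
After both drugs, 5 of 8 were called, where 10.1% of genes were called lower and 9.17% higher. TAP1 was at -2.02 ± 0.05, TAP2 at -1.93 ± 0.07 and TAPBP at -1.10 ± 0.07, all lower than the median gene, and TAPBP was not called without combination replicate 3 (-0.99) or with libraries scaled to the same total (-0.99). HLA-E, at 1.28 ± 0.05, and B2M, at 1.05 ± 0.06, were higher than the median gene while they fell on the deposited scale (limma adjusted p at most 4.8e-10 over the 5). B2M was at 0.90 with equal totals without MIR1244 and was then not called. HLA-B, HLA-C and HLA-F were at 0.24, 0.70 and -0.18 and were not called.

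**Figure D3:**
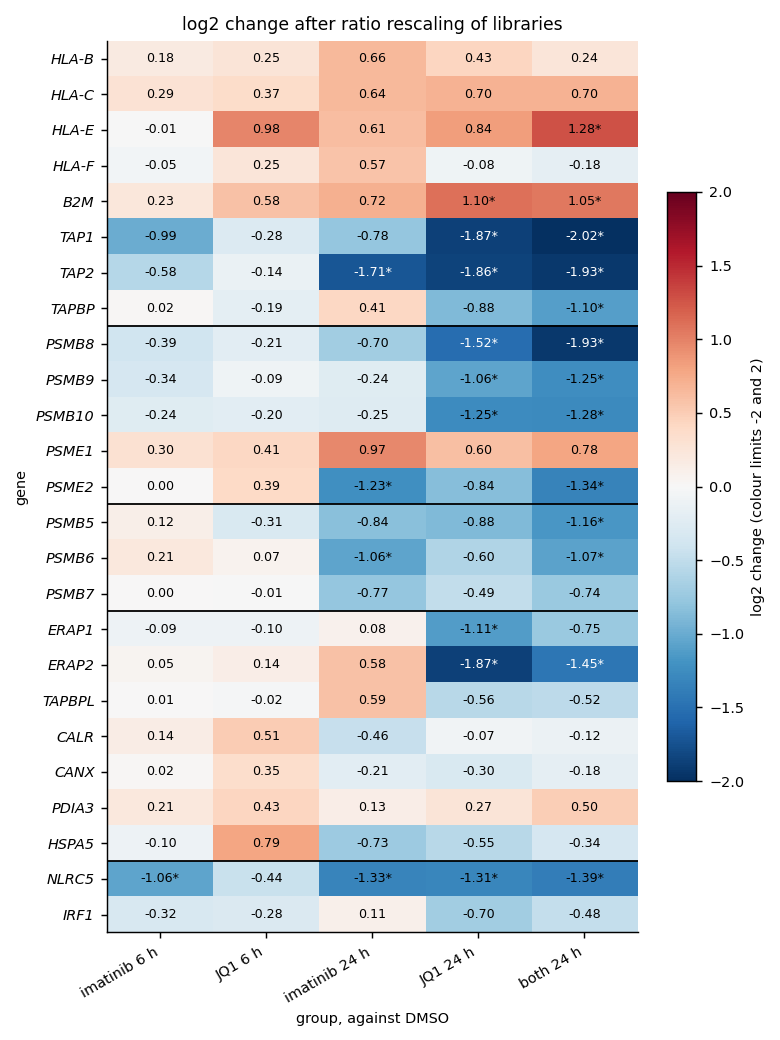
Log2 change against DMSO after rescaling each library to the typical gene, for the 8 members and for genes of peptide cleavage, trimming, folding and transcription (rows), in 5 drug groups (columns); red is higher and blue lower than the median gene, and a star marks a call. TAP1 and TAP2 are called lower after JQ1 for 24 h (-1.87 and -1.86) and after both drugs, as are PSMB8, PSMB9 and PSMB10.

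Ratios within a library do not depend on any scaling. TAP1 was at 1.71% ± 0.0563 of B2M after imatinib for 6 h, 1.43% ± 0.0357 after imatinib for 24 h, 2.29% ± 0.239 after JQ1 for 6 h, 0.462% ± 0.0600 after JQ1 for 24 h and 0.418% ± 0.0479 after both, against 4.18% ± 0.254 in DMSO (SD, n = 3 each). That is 9.04-fold below DMSO for JQ1 at 24 h and 10.00-fold below it for both drugs. These ratios hold the shifts of both genes. Relative to the median gene, B2M was higher in these 2 groups, at 1.10 and 1.05, and TAP1 was lower, at -1.87 and -2.02. TAP2 was at 2.33% ± 0.231 of B2M after imatinib for 6 h, 0.683% ± 0.0629 after imatinib for 24 h, 2.52% ± 0.175 after JQ1 for 6 h, 0.463% ± 0.0570 after JQ1 for 24 h and 0.453% ± 0.0663 after both, against 4.17% ± 0.334 in DMSO. TAPBP was at 3.66% ± 0.240 of B2M after imatinib for 6 h, 3.45% ± 0.194 after imatinib for 24 h, 2.45% ± 0.219 after JQ1 for 6 h, 1.02% ± 0.133 after JQ1 for 24 h and 0.901% ± 0.145 after both, against 4.22% ± 0.359 in DMSO. For TAPBP the JQ1 6 h libraries lay between those of the other groups: below every imatinib and DMSO library and above every library of JQ1 for 24 h or of both drugs. The 4 heavy chains together were at 57.9% ± 1.93 of B2M after imatinib for 6 h, 56.4% ± 2.86 after imatinib for 24 h, 55.4% ± 4.53 after JQ1 for 6 h, 42.9% ± 3.19 after JQ1 for 24 h and 46.8% ± 5.30 after both, against 59.3% ± 3.81 in DMSO.

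**Figure D4:**
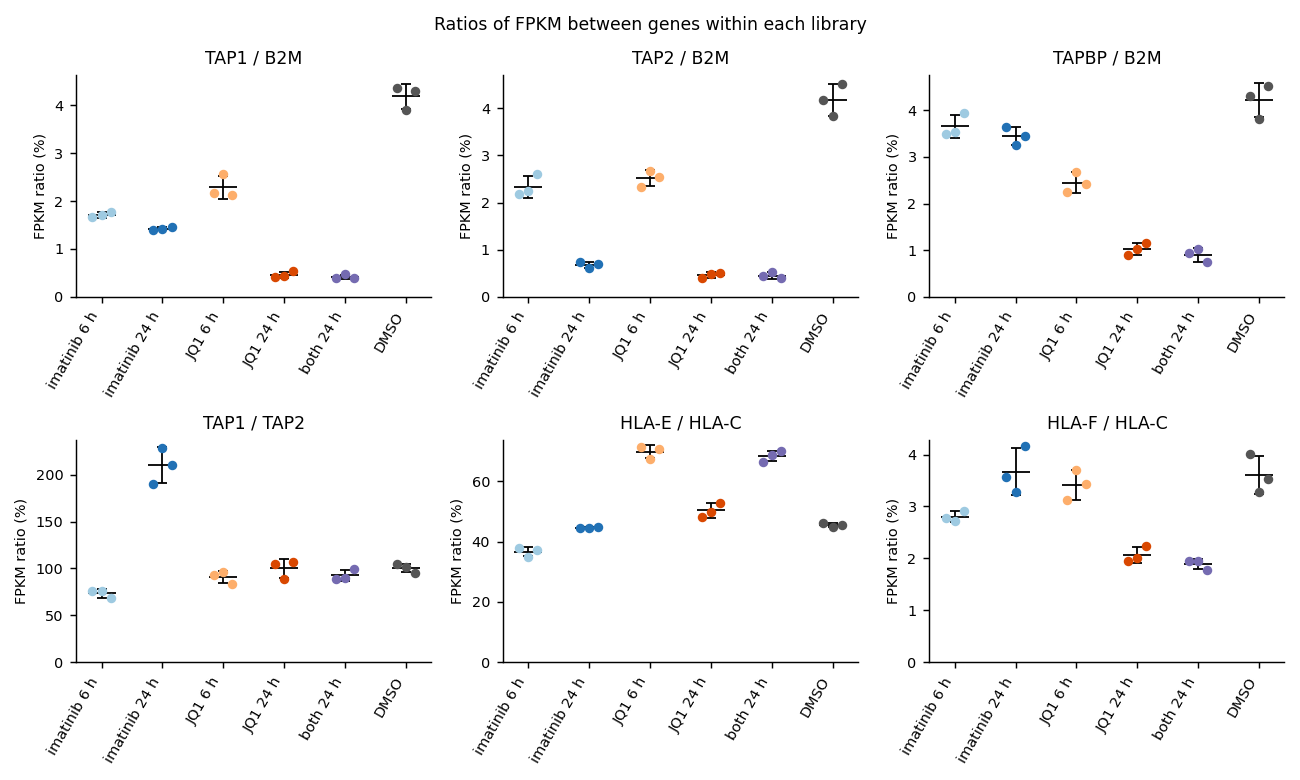
Ratio of 2 members within each library, in percent (points), by group, with the mean and SD of 3 libraries. TAP1 relative to B2M is lowest after JQ1 for 24 h and after both drugs, TAP1 relative to TAP2 is highest after imatinib for 24 h (209.9% ± 19.1), and HLA-E relative to HLA-C is highest after JQ1 for 6 h (69.8% ± 2.11) and after both (68.4% ± 1.78).

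The next comparisons set the drugs against each other. At 24 h TAPBP and TAP1 were lower after JQ1 than after imatinib: 2 of 8 members fell, where 4.88% of genes were called lower and 3.59% higher. TAPBP changed by -1.23 ± 0.19 and TAP1 by -1.01 ± 0.17 (SE; limma adjusted p at most 5.1e-05), and both were also called after rescaling, at -1.29 and -1.09, where 6.09% were called lower and 3.57% higher. TAP1 was not called on the deposited scale without imatinib 24 h replicate 2 or 3, JQ1 24 h replicate 2 or the unnumbered JQ1 24 h library, at -0.98, -0.99, -0.99 and -0.93. TAP2 did not pass the test, at -0.11 with a 95% interval of -0.49 to 0.27, and B2M was at 0.42.
At 6 h, limma called 0 of 8 members between JQ1 and imatinib, where 9.36% of genes were called lower and 1.95% higher. An unadjusted p below 0.05 was found for 3 of 8, and for 6855 of the 12771 tested genes. HLA-E was higher after JQ1 in every library, with a log2 change of 0.63 ± 0.20 (limma adjusted p = 0.015) that did not reach the fold threshold, and of 0.99 ± 0.05 relative to the median gene. That rescaled change passed the threshold without imatinib 6 h replicate 2 (1.01) or JQ1 6 h replicate 1 (1.01). TAP1 was higher after JQ1 in every library, at 0.38, with a 95% interval of 0.03 to 0.73 (limma adjusted p = 0.0709). TAPBP was lower after JQ1 in every library, at -0.57 ± 0.19 (limma adjusted p = 0.0153). HLA-B and HLA-C were also lower in every library, each at -0.29 (limma adjusted p = 0.232 and 0.236). The share of all genes without overlap was not computed for this comparison. After rescaling 0 of 8 were called, where 3.3% were called lower and 3.43% higher. Then 6 of 8 had an unadjusted p below 0.05, as did 9481 of the 12771 tested genes.

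Adding JQ1 to imatinib for 24 h lowered 4 of 8 members, where 14.5% of genes were called lower and 0.423% higher. TAPBP changed by -2.05 ± 0.19, TAP1 by -1.67 ± 0.17, HLA-F by -1.17 ± 0.17 and HLA-B by -1.10 ± 0.20 (SE; limma adjusted p at most 7.9e-05). HLA-B was not called without combination replicate 1 (-0.92). After rescaling TAPBP and TAP1 were called, at -1.51 and -1.25, where 5.58% of genes were called lower and 2.37% higher. HLA-E had a log2 change of -0.02 with a 95% interval of -0.44 to 0.41, and TAP2 of -0.69 with -1.07 to -0.31.
Adding imatinib to JQ1 for 24 h gave 0 calls by limma among the 8 members, where 7.35% of genes were called lower and 0.047% higher. An unadjusted p below 0.05 was found for 7 of 8, and for 9828 of the 12771 tested genes. The members' log2 changes lay between -0.90 for HLA-B and -0.28 for HLA-E, beside -0.54 for the median gene. With array weights 2 of 8 were called, HLA-B at -1.12 and B2M at -1.0. Without combination replicate 2 the pair called was HLA-B and TAPBP, with HLA-B at -1.16 and TAPBP at -1.03. After rescaling 0 of 8 were called, where 0.814% were called lower and 0.227% higher, and the members' changes lay between -0.22 and 0.44. Then 4 of 8 had an unadjusted p below 0.05, as did 7219 of the 12771 tested genes.

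Between 6 h and 24 h TAP2 fell with each drug, and TAP1 and TAPBP fell with JQ1. With imatinib, 1 of 8 members fell over time, where 33.4% of genes were called lower and 0.501% higher: TAP2 changed by -1.99 ± 0.18 (SE; limma adjusted p = 6.0e-09), and by -1.14 ± 0.07 relative to the median gene, where 4.38% of genes were called lower and 3.98% higher. With libraries scaled to the same total TAP2 was at -0.75 and was not called, while HLA-E and HLA-F were called higher, at 1.08 and 1.05, where the median gene was itself at 0.42. On the deposited scale TAP1 was at -0.67 with a 95% interval of -1.02 to -0.32, above the -0.77 of the median gene. With JQ1, 3 of 8 fell over time, where 14.2% were called lower and 0.509% higher: TAP2 at -2.19 ± 0.18, TAP1 at -2.06 ± 0.17 and TAPBP at -1.20 ± 0.19 (limma adjusted p at most 1.8e-05). Few genes were lower over time with JQ1 than these: the share of genes below TAP2 was 0.783% and that below TAP1 0.955%. After rescaling TAP1 and TAP2 were called, at -1.59 and -1.72, where 3.45% were called lower and 2.66% higher. B2M had a log2 change of -0.04 over time with JQ1 and a 95% interval of -0.41 to 0.34.

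The genes that act before and around the members were taken from lists of pathway genes and set against DMSO, with the shares of all genes called given above as the background. Of all tested genes, 20.0% fell after imatinib for 6 h, 72.1% after imatinib for 24 h and 49.8% after JQ1 for 6 h. After JQ1 for 24 h 75.3% fell, and after both 86.0%. Of the 5 genes of the immunoproteasome and its PA28 activator, which cut peptides suited to class I, the number that fell was 3 after imatinib for 6 h, 4 after imatinib for 24 h, 3 after JQ1 for 6 h, 5 after JQ1 for 24 h and 5 after both, and 0 rose. Their median log2 change was -2.63 after JQ1 for 24 h and -3.60 after both, beside -1.49 and -2.05 for all genes. PSMB8, a catalytic subunit, averaged 2.18 ± 0.501 FPKM after JQ1 for 24 h and 0.897 ± 0.261 after both, against 25.2 ± 4.51 FPKM in DMSO (SD, n = 3 each), with log2 changes of -3.03 and -3.78. PSMB9, the subunit whose gene lies head to head with TAP1, changed by -2.63 and -3.35, and PSMB10 by -2.92 and -3.60, in the same 2 groups. PSME2, a PA28 chain, changed by -2.95 after imatinib for 24 h, while its partner PSME1 was at -0.76 and was not called. Relative to the median gene, the number of the 5 that fell was 0 after imatinib for 6 h, 1 after imatinib for 24 h, 0 after JQ1 for 6 h, 3 after JQ1 for 24 h and 4 after both.
The housekeeping catalytic subunits that the immunoproteasome replaces, PSMB5, PSMB6 and PSMB7, all fell in 4 of the 5 comparisons and none after imatinib for 6 h. Their median was -2.58 after imatinib for 24 h and -2.30 after JQ1 for 24 h, and relative to the median gene the number that fell was 0 after imatinib for 6 h, 1 after imatinib for 24 h, 0 after JQ1 for 6 h, 0 after JQ1 for 24 h and 2 after both. PSMB8 was lower than these 3 after JQ1 for 24 h, at -1.52 relative to the median gene, beside -0.88, -0.60 and -0.49 for PSMB5, PSMB6 and PSMB7; that difference between genes was not tested.

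Of the 7 genes for peptide trimming and for folding of the class I complex, the number that fell was 0 after imatinib for 6 h, 6 after imatinib for 24 h, 2 after JQ1 for 6 h, 7 after JQ1 for 24 h and 7 after both, and 0 rose. The trimming peptidases ERAP2 and ERAP1 had the lowest log2 changes of the 7 after JQ1 for 24 h and after both. ERAP2 averaged 23.9 ± 2.15 FPKM after imatinib for 24 h, 3.86 ± 0.394 after JQ1 for 24 h and 3.31 ± 0.794 after both, against 53.0 ± 10.3 FPKM in DMSO (SD, n = 3 each). Relative to the median gene it changed by -1.87 after JQ1 for 24 h and -1.45 after both, and ERAP1 by -1.11 after JQ1 for 24 h, all 3 called, while ERAP1 was at -0.75 after both and was not. The chaperones calreticulin (CALR), calnexin (CANX), PDIA3 and HSPA5 fell on the deposited scale in all 3 groups of 24 h, and relative to the median gene none of them was called in any of the 5 comparisons. The tapasin homolog TAPBPL fell in the groups with JQ1, at -1.03 after 6 h, -1.97 after 24 h and -2.38 with both drugs, and was at -0.92 after imatinib for 24 h.
Of the 8 tested genes of 10 that are other class I or class I-like genes, the number that fell was 0 after imatinib for 6 h, 2 after imatinib for 24 h, 1 after JQ1 for 6 h, 5 after JQ1 for 24 h and 7 after both, and 0 rose. PROCR, a class I-like receptor for protein C, fell, at -2.78 after JQ1 for 24 h and -3.64 after both. Relative to the median gene, MR1, which presents vitamin metabolites, and FCGRT, the neonatal Fc receptor, were called higher after imatinib for 24 h, at 1.75 and 1.64, with deposited changes of 0.39 and -0.04, neither called.

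Transcription regulators came next. Of 13 regulators of class I promoters, the number that fell was 4 after imatinib for 6 h, 12 after imatinib for 24 h, 11 after JQ1 for 6 h, 12 after JQ1 for 24 h and 13 after both, and 0 rose, and relative to the median gene 1 fell in each comparison, RFXAP after JQ1 for 6 h and NLRC5 in the other four. NLRC5, the class I transactivator, averaged 0.874 ± 0.240 FPKM after imatinib for 6 h, 0.241 ± 0.0111 after imatinib for 24 h, 1.62 ± 0.106 after JQ1 for 6 h, 0.258 ± 0.0363 after JQ1 for 24 h and 0.125 ± 0.0214 after both, against 5.83 ± 1.29 FPKM in DMSO (SD, n = 3 each). It fell in all 5 comparisons, with log2 changes from -1.37 to -2.58, and relative to the median gene in all but JQ1 for 6 h, at -0.44; at these low levels the added 1 FPKM makes the log2 change smaller than the ratio of the means. IRF1, an interferon regulatory factor, averaged 5.52 ± 0.677 FPKM after JQ1 for 24 h and 4.09 ± 1.36 after both, against 31.3 ± 7.78 FPKM in DMSO, and relative to the median gene it was at -0.70 and -0.48, not called. RFXAP, a subunit of the RFX complex that binds class I and class II promoters, was lowest after JQ1 for 6 h, at 2.35 ± 0.384 FPKM, against 20.5 ± 3.93 FPKM in DMSO, with -1.57 relative to the median gene.
Of 14 interferon receptor and signalling genes, the number that fell was 3 after imatinib for 6 h, 12 after imatinib for 24 h, 7 after JQ1 for 6 h, 12 after JQ1 for 24 h and 13 after both, and 0 rose. Relative to the median gene, 1 of the 14 fell after imatinib for 6 h and 2 after imatinib for 24 h. Likewise 2 fell after JQ1 for 6 h, 1 after JQ1 for 24 h and 1 after both, and 0 rose. The rescaled medians of the list lay between -0.13 and 0.06. USP18, an interferon-induced inhibitor of the type I receptor, fell in all 5 comparisons on both scales, and averaged 0.213 FPKM after both drugs, against 22.1 FPKM in DMSO.

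Genes whose 5 log2 changes from DMSO lay nearest to those of the members were found by the root mean square difference, over tested genes with a mean of at least 5 FPKM. For the median of the 8 members they were MFSD10, CAMKMT and TSHZ1, at 0.0996, 0.109 and 0.110 log2 units. HLA-C had the closest neighbour of the 8, CDC34 at 0.0228, and TAP1 the most distant, RAI14 at 0.240. The nearest gene to TAP2 was SRM (0.121), to TAPBP IQGAP2 (0.0993), to B2M CABLES2 (0.0794), to HLA-B PTCD1 (0.0848), to HLA-E TMEM81 (0.115) and to HLA-F MFSD10 (0.0851). The 5 changes share the DMSO libraries, so nearness is only a description.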

How the data were processed

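RNA-seq was done on 18 GIST-T1 libraries with ERCC spike-in RNA added per cell count, per the labels' protocols. The deposited table holds FPKM per gene for each library, which the authors labelled as normalized; STAR, Cufflinks and hg19 are named in the submitters' processing notes, and the normalization step and read depth are not given in the sources used here. Replicates were not pooled. The filter asked for 1 FPKM or more in 3 libraries or more and kept 12771 of 23621 gene rows; the 92 spike-in rows were left out. The values log2(FPKM + 1) were fitted with limma 3.58.1 in R 4.3.3, with 1 mean per group over all 18 libraries, a mean-variance trend and 12 residual degrees of freedom. P-values are two-sided and adjusted by Benjamini-Hochberg over all tested genes within each of 11 comparisons. The pseudocount makes the changes of low genes smaller. The same fit was run on values rescaled by ratio. The code was tested on simulated data with known changes. 1 column labelled JQ1 24 h carries a number that matches no sample title, so it is called unnumbered. Gene names of the table include 28 that read as dates; none is a member.

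The 8 members, the pathway lists and the markers were chosen with earlier results of these data known. Named besides the members are all genes of the immunoproteasome and chaperone lists, NLRC5, IRF1 and up to 3 tested genes of largest change per other list and comparison with DMSO. Some genes that this rule would name are not reported here. Alternatives were other scalings, pseudocounts, filters and thresholds, array weights, a replicate block, a fit of the compared groups alone and leaving out each library.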

Additional observations from a re-analysis of the deposited data

Results flagged for a closer look

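The difference between the 6 h and the 24 h libraries of the same drug was tested in limma's fit. It passed both the adjusted p and the fold threshold for 4 member and drug pairs, all lower at 24 h. Of all genes, 33.4% were called lower over time with imatinib and 14.2% with JQ1. By adjusted p alone, 6 of 8 members were lower with imatinib and 5 of 8 with JQ1. So were 10056 of the 12771 tested genes with imatinib and 7050 with JQ1. TAP2 with imatinib had a log2 change of -1.99 between 24 h and 6 h. With JQ1 the log2 changes between 24 h and 6 h were -2.06 for TAP1, -2.19 for TAP2 and -1.20 for TAPBP. In all 4 pairs every 24 h library was below every 6 h library. That held for 7 of 8 members with each drug, and the share of all genes without overlap was not computed here. After ratio rescaling TAPBP with JQ1 no longer passed the fold threshold, and the other 3 did. With libraries scaled to the same total, TAP2 with imatinib was at -0.75 and was not called either.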

How the results depend on the processing

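The counts of members called depended on the scaling. After ratio rescaling, in which each library is divided by the median ratio of its genes to the average library, limma called 0 in place of 2 for imatinib 6 h against DMSO, 0 in place of 3 for JQ1 6 h against DMSO, 1 in place of 7 for imatinib 24 h against DMSO, 3 in place of 6 for JQ1 24 h against DMSO, 5 in place of 8 for both drugs against DMSO and 2 in place of 4 for both drugs against imatinib 24 h. After total rescaling, in which libraries are scaled to the same sum, it called 1 in place of 2 for imatinib 6 h against DMSO, 0 in place of 3 for JQ1 6 h against DMSO, 3 in place of 6 for JQ1 24 h against DMSO, 4 in place of 8 for both drugs against DMSO and 2 in place of 1 for imatinib 24 h against imatinib 6 h. After total rescaling without the MIR1244 rows it called 1 in place of 2 for imatinib 6 h against DMSO, 0 in place of 3 for JQ1 6 h against DMSO, 1 in place of 7 for imatinib 24 h against DMSO, 2 in place of 6 for JQ1 24 h against DMSO, 4 in place of 8 for both drugs against DMSO and 2 in place of 4 for both drugs against imatinib 24 h. Set against ratio rescaling, total rescaling called 1 in place of 0 for imatinib 6 h against DMSO, 5 in place of 1 for imatinib 24 h against DMSO and 2 in place of 1 for imatinib 24 h against imatinib 6 h, and total rescaling without MIR1244 called 1 in place of 0 for imatinib 6 h against DMSO. These counts take both directions together. Higher were 1 of the 3 for JQ1 24 h against DMSO and 2 of the 5 for both drugs against DMSO after ratio rescaling; 4 of the 5 for imatinib 24 h against DMSO, 1 of the 3 for JQ1 24 h against DMSO, 2 of the 4 for both drugs against DMSO and 2 of the 2 for imatinib 24 h against 6 h after total rescaling; and 1 of the 4 for both drugs against DMSO without MIR1244. With no fold threshold the counts were 8 in place of 2 for imatinib 6 h against DMSO, 7 in place of 3 for JQ1 6 h against DMSO, 7 in place of 0 for both drugs against JQ1 24 h, 2 in place of 0 for JQ1 6 h against imatinib 6 h, 6 in place of 1 for imatinib 24 h against imatinib 6 h and 5 in place of 3 for JQ1 24 h against JQ1 6 h, all lower but 1 of the 2 for JQ1 6 h against imatinib 6 h. Most genes passed this setting too. Of 12771 tested genes, those called lower in these comparisons, in the same order, numbered 10284, 11688, 9379, 5151, 10056 and 7050. For JQ1 6 h against imatinib 6 h, where fewer genes were called lower, 908 were called higher. Array weights gave 2 in place of 0 for both drugs against JQ1 24 h, and 5 in place of 6 for JQ1 24 h against DMSO, where HLA-C was at -0.95, and a test against a fold of 1.5 gave 1 in place of 2 for JQ1 24 h against imatinib 24 h. Pseudocounts of 0.1 and 0.01, no filter, a filter at a mean of 5 FPKM and a fit of the compared groups alone kept every count of members within 1.5 times. Total rescaling moved the median gene by -0.29 (JQ1 24 h against imatinib 24 h) to 0.42 (imatinib 24 h against 6 h), and total rescaling without MIR1244 by -0.20 (JQ1 6 h against DMSO) to 0.12, while ratio rescaling left it within -0.01 to 0.03. Of all genes called, 10.1 to 87.7% were higher after total rescaling, 14.0 to 61.2% without MIR1244, 21.8 to 50.9% after ratio rescaling and 0.272 to 42.4% on the deposited scale, over the 11 comparisons.

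The sign of the heavy chains and B2M turned with the rescaling, and the log2 changes that turned were these. Imatinib 6 h against DMSO then had HLA-B at 0.18, HLA-C at 0.29, B2M at 0.23 and TAPBP at 0.021 after ratio rescaling. Total rescaling of imatinib 6 h against DMSO put HLA-B at 0.17, HLA-C at 0.29, B2M at 0.22 and TAPBP at 0.014. Without MIR1244, imatinib 6 h against DMSO had HLA-B at 0.14, HLA-C at 0.26 and B2M at 0.19. Imatinib 24 h against DMSO then had HLA-B at 0.66, HLA-C at 0.64, HLA-E at 0.61, HLA-F at 0.57, B2M at 0.72 and TAPBP at 0.41 after ratio rescaling. Total rescaling of imatinib 24 h against DMSO put HLA-B at 1.10, HLA-C at 1.09, HLA-E at 1.06, HLA-F at 0.99, B2M at 1.17 and TAPBP at 0.85. Without MIR1244, imatinib 24 h against DMSO had HLA-B at 0.73, HLA-C at 0.72, HLA-E at 0.69, HLA-F at 0.65, B2M at 0.79 and TAPBP at 0.49. JQ1 6 h against DMSO then had HLA-B at 0.25, HLA-C at 0.37, HLA-E at 0.98, HLA-F at 0.25 and B2M at 0.58 after ratio rescaling. Total rescaling of JQ1 6 h against DMSO put HLA-C at 0.042, HLA-E at 0.65 and B2M at 0.25. Without MIR1244, JQ1 6 h against DMSO had HLA-B at 0.00082, HLA-C at 0.12, HLA-E at 0.73, HLA-F at 0.038 and B2M at 0.33. JQ1 24 h against DMSO then had HLA-B at 0.43, HLA-C at 0.70, HLA-E at 0.84 and B2M at 1.10 after ratio rescaling. Total rescaling of JQ1 24 h against DMSO put HLA-B at 0.53, HLA-C at 0.80, HLA-E at 0.94 and B2M at 1.20. Without MIR1244, JQ1 24 h against DMSO had HLA-B at 0.31, HLA-C at 0.59, HLA-E at 0.73 and B2M at 0.99. Both drugs against DMSO then had HLA-B at 0.24, HLA-C at 0.70, HLA-E at 1.28 and B2M at 1.05 after ratio rescaling. Total rescaling of both drugs against DMSO put HLA-B at 0.36, HLA-C at 0.83, HLA-E at 1.41 and B2M at 1.18. Without MIR1244, both drugs against DMSO had HLA-B at 0.091, HLA-C at 0.55, HLA-E at 1.14 and B2M at 0.90. Both drugs against imatinib 24 h then had HLA-C at 0.061, HLA-E at 0.67 and B2M at 0.33 after ratio rescaling. Total rescaling of both drugs against imatinib 24 h put HLA-E at 0.35 and B2M at 0.010. Without MIR1244, both drugs against imatinib 24 h had HLA-E at 0.45 and B2M at 0.11. Both drugs against JQ1 24 h then had HLA-C at 0.0041 and HLA-E at 0.44 after ratio rescaling. Total rescaling of both drugs against JQ1 24 h put HLA-C at 0.030 and HLA-E at 0.47. Without MIR1244, both drugs against JQ1 24 h had HLA-E at 0.41. JQ1 6 h against imatinib 6 h then had HLA-B at 0.075, HLA-C at 0.076, HLA-F at 0.30 and B2M at 0.36 after ratio rescaling. Total rescaling of JQ1 6 h against imatinib 6 h put HLA-F at 0.032 and B2M at 0.034. Without MIR1244, JQ1 6 h against imatinib 6 h had HLA-F at 0.12 and B2M at 0.14. Total rescaling of JQ1 24 h against imatinib 24 h put HLA-C at -0.29 and HLA-E at -0.12. Without MIR1244, JQ1 24 h against imatinib 24 h had HLA-C at -0.13. Imatinib 24 h against imatinib 6 h then had HLA-B at 0.48, HLA-C at 0.35, HLA-E at 0.62, HLA-F at 0.62, B2M at 0.49, TAP1 at 0.21 and TAPBP at 0.39 after ratio rescaling. Total rescaling of imatinib 24 h against imatinib 6 h put HLA-B at 0.93, HLA-C at 0.80, HLA-E at 1.08, HLA-F at 1.05, B2M at 0.95, TAP1 at 0.64 and TAPBP at 0.84. Without MIR1244, imatinib 24 h against imatinib 6 h had HLA-B at 0.59, HLA-C at 0.46, HLA-E at 0.74, HLA-F at 0.73, B2M at 0.60, TAP1 at 0.32 and TAPBP at 0.50. JQ1 24 h against JQ1 6 h then had HLA-B at 0.17, HLA-C at 0.33 and B2M at 0.52 after ratio rescaling. Total rescaling of JQ1 24 h against JQ1 6 h put HLA-B at 0.60, HLA-C at 0.76, HLA-E at 0.29, HLA-F at 0.026 and B2M at 0.95. Without MIR1244, JQ1 24 h against JQ1 6 h had HLA-B at 0.31, HLA-C at 0.47 and B2M at 0.66.

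Between the rescalings, total rescaling put HLA-B at -0.075 for JQ1 6 h against DMSO, HLA-F at -0.028 for JQ1 6 h against DMSO, HLA-C at -0.26 for both drugs against imatinib 24 h, HLA-B at -0.24 for JQ1 6 h against imatinib 6 h, HLA-C at -0.24 for JQ1 6 h against imatinib 6 h, HLA-C at -0.29 for JQ1 24 h against imatinib 24 h, HLA-E at -0.12 for JQ1 24 h against imatinib 24 h, HLA-E at 0.29 for JQ1 24 h against JQ1 6 h and HLA-F at 0.026 for JQ1 24 h against JQ1 6 h. Total rescaling without MIR1244 put TAPBP at -0.014 for imatinib 6 h against DMSO, HLA-C at -0.16 for both drugs against imatinib 24 h, HLA-C at -0.031 for both drugs against JQ1 24 h, HLA-B at -0.14 for JQ1 6 h against imatinib 6 h, HLA-C at -0.14 for JQ1 6 h against imatinib 6 h and HLA-C at -0.13 for JQ1 24 h against imatinib 24 h. The signs of these small changes differed from those after ratio rescaling. Array weights turned B2M of JQ1 6 h against imatinib 6 h to 0.060.

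Leaving out each library in turn gave 3 to 8 members called for imatinib 24 h against DMSO, where DMSO replicate 3 decided the lower value, 0 to 2 for both drugs against JQ1 24 h and 1 to 2 for JQ1 24 h against imatinib 24 h. After ratio rescaling it gave 0 to 1 for imatinib 6 h against DMSO, for JQ1 6 h against DMSO and for JQ1 6 h against imatinib 6 h, the 1 being higher in the last pair of comparisons. The log2 changes whose sign turned were HLA-E of JQ1 6 h against DMSO (-0.32 to 0.022), HLA-E of both drugs against imatinib 24 h (-0.28 to 0.18), HLA-F of JQ1 6 h against imatinib 6 h (-0.057 to 0.066), B2M of JQ1 6 h against imatinib 6 h (-0.081 to 0.079) and B2M of JQ1 24 h against JQ1 6 h (-0.13 to 0.030). After ratio rescaling they were HLA-E (-0.042 to 0.030) and TAPBP (-0.0092 to 0.067) of imatinib 6 h against DMSO, and HLA-C (-0.045 to 0.055) and B2M (-0.12 to 0.0018) of both drugs against JQ1 24 h. Leaving out libraries after rescaling was chosen after the data were seen.

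With the replicate number as a block, 5 of 8 members were called in place of 6 for JQ1 24 h against DMSO, since HLA-C moved to -0.999, and no other member call changed. The numbers share only a label: over 29 pairs of libraries with the same number the correlation of their deviations ran from -0.219 to 0.193, 3 pairs were over 0.1, and in 0 comparisons were all pairs. The causes of these changes were not tested. The read depth is unknown, so no counting error could be set beside low values such as those of NLRC5.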

Other observations

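Ligands of the NKG2D receptor, stress-induced relatives of class I molecules that natural killer cells detect, were set against DMSO too. Of 5 listed, 4 were tested, and 3 fell after imatinib for 6 h, 4 after imatinib for 24 h, 0 after JQ1 for 6 h, 4 after JQ1 for 24 h and 4 after both, beside the shares of all genes given above. MICB averaged 0.598 ± 0.0872 FPKM after imatinib for 24 h, 1.71 ± 0.172 after JQ1 for 24 h and 0.499 ± 0.179 after both, against 12.7 ± 2.72 FPKM in DMSO (SD, n = 3 each). MICB and ULBP2 fell relative to the median gene after imatinib for 24 h, at -1.74 and -1.02. MICA, the highest of the list, averaged 14.1 ± 0.286 FPKM after imatinib for 24 h and 38.4 ± 5.55 after JQ1 for 24 h, against 95.7 ± 18.6 FPKM in DMSO.

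None of 12 class II genes passed the filter, and 11 of 12 were below 1 FPKM in all libraries. Of 4 ligands of T cell and macrophage checkpoints, CD276 and CD47 were tested. CD276 fell in 4 of 5 comparisons with DMSO, down to 5.13 ± 1.93 FPKM after both, against 79.3 ± 18.5 FPKM in DMSO, and relative to the median gene after both, at -1.47. CD274 (PD-L1) averaged 0.174 FPKM after both and 0.864 FPKM in DMSO, below the filter. The 3 endothelial markers were below 1 FPKM in all libraries, as were 3 of 4 epithelial markers.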
